A study of Mus musculus with 13 samples.

Results

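The matrix metalloproteases (Mmp genes), the Adamts proteases and their tissue inhibitors (Timp genes) were followed in sorted cells of mouse Sonic Hedgehog medulloblastoma, a tumour of cerebellar granule cell precursors. All rows of the count table whose symbol was Mmp, Adamts or Timp followed by a number were taken, with no filter on low counts. This gave 46 of 53653 genes, of which 23 were Mmp genes, 19 Adamts genes and 4 Timp genes. The 13 libraries fell into 3 groups. Control primary tumours (n = 5) came from the cerebellum of SmoM2 animals of 6 to 16 weeks. Kmt2d knockout primary tumours (KO primary, n = 4) and spinal cord metastases (KO metastasis, n = 4) came from SmoM2-Kmt2dCf/Cf animals of 5 to 8 weeks. SmoM2, an activated form of the Hedgehog signal transducer Smoothened, was overexpressed in every group, so none of the libraries represents tissue free of Hedgehog activation. All libraries were made from GFP-positive sorted cells. The sources used here do not name the driver of the Kmt2d deletion. Nor do they tie libraries to single mice, so each p-value measures only the spread between these libraries. No control metastasis was measured, so among metastases genotype could not be compared.

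Matrix metalloproteases are zinc proteases that cut collagens, laminins, growth factors and cell surface proteins. Most are secreted as inactive precursors, and the membrane-type members are anchored on the cell surface, where Mmp14 activates pro-Mmp2 in a complex with Timp2. Adamts proteases are secreted relatives, of which one group cuts proteoglycans of the brain matrix such as aggrecan, brevican and versican and another trims procollagens. Timp proteins block the active site of these enzymes, and Timp3, which binds to the matrix, also blocks several Adamts proteases.

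Library totals ran from 23545383 to 41412288 counts. Levels below are CPM, counts brought to a common library size and scaled by the trimmed mean of M values (TMM), and genes are compared with each other only per kilobase of exon. Kmt2d was counted at 78.1 to 175 CPM in the controls, 91.7 to 168 CPM in the KO primaries and 105 to 131 CPM in the KO metastases, a count over the whole gene that does not check the deletion. Smo was read at 188 to 328 CPM in the controls and 190.2 to 439 CPM in the 8 knockout libraries. The summed markers of granule cell precursors, the labelled cell type, were at 3637 to 4945 CPM in the controls. They were at 5197 to 6100 CPM in the KO primaries and 5087 to 6478 CPM in the KO metastases, without overlap with the controls. Of the 10 markers, 2 were called higher in the KO primaries and 3 in the KO metastases, beside 1.15% and 1.06% of all genes. There were 4 libraries that stood apart by counts over 1772 olfactory and vomeronasal receptor genes: control primary 3 at 1679 CPM, KO primary 7 at 696 CPM, KO metastasis 6 at 544 CPM and KO metastasis 7 at 332 CPM. KO primary 6 had 81.3 CPM and the other 8 libraries 5.59 to 16.6 CPM. Xist, expressed from the inactive X of female cells, was at 330 to 483 CPM in control primaries 5, 6 and 7 and at most 0.913 CPM in the 10 others, so all 8 knockout libraries matched males, and sex is partly confounded with genotype.

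Promoter sequences were read from RefSeq (GRCm38.p6) as the 250 bases before the annotated start, 5′ to 3′ on the strand of the gene, and were found for 32 of the 46 genes. They are shown first for the members whose levels carry the results: Mmp14 (chr14:54431348-54431597, plus strand) and Mmp24 (chr2:155775092-155775341, plus strand), which exchanged places as the top Mmp gene, and Mmp11 (chr10:75932503-75932752, minus strand) and Timp4 (chr6:115252206-115252455, minus strand), which were called in both comparisons with the controls. Capitals mark the GC box GGGCGG on either strand, or in Timp4 the E box CAGCTG of the type that Atoh1, the granule cell precursor factor, can bind. No base of these windows lies in an annotated exon, and that of Mmp11 lies within the gene as GENCODE draws it, in an intron of its longer transcript models.
Mmp14: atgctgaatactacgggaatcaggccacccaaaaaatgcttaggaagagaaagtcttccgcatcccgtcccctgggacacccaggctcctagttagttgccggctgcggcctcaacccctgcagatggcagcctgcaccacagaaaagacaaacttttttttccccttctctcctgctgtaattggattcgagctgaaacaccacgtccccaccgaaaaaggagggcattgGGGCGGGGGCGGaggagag
Mmp24: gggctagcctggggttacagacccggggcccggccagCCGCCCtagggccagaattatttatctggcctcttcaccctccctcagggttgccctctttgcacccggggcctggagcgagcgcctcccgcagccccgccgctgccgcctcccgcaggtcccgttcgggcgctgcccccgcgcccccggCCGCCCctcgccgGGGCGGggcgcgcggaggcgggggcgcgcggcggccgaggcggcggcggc
Mmp11: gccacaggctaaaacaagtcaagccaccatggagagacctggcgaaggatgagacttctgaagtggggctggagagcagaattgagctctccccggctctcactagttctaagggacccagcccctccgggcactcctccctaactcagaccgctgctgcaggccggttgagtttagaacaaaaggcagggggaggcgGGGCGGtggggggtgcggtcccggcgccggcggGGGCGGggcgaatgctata
Timp4: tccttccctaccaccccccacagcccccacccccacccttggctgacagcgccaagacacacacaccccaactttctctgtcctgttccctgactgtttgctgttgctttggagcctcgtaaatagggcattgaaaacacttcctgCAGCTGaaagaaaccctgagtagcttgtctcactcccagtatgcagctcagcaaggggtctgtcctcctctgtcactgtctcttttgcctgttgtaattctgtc
The GC box was present in 16 of the 32 windows, those of Mmp11, Mmp14 and Mmp24 among them, and in 33.0% of all 27025 promoter windows of this length. The E box was present in 7 of the 32, Timp4 and Timp2 included, and in 12.7% of all windows. The Gli motif GACCACCCA was in 0 of the 32 windows and in 0.207% of all, searched on both strands like the others. A match describes letters in a window and not a bound site.

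By the mean over the 3 groups, the membrane-type metalloproteases Mmp14 and Mmp24 had the highest levels of the 46 genes, but the order differed between the groups. Per kilobase, Mmp24 was at 41.7 ± 15.6 CPM (SD, n = 5) in the controls, 12.2 ± 4.43 (n = 4) in the KO primaries and 9.79 ± 4.0 (n = 4) in the KO metastases. Mmp14 was at 23.7 ± 9.91, 47.1 ± 16.2 and 39.6 ± 11.2 CPM per kilobase in the same order. The procollagen N-proteinase Adamts14 was at 10.7 ± 5.49, 25.6 ± 10.5 and 17.1 ± 4.84 CPM per kilobase, below the proteoglycanase Adamts1 in the controls and above Mmp24 in both knockout groups. Adamts1 was at 17.1 ± 5.75, 18.3 ± 6.15 and 15.9 ± 5.3, also above Mmp24 in both knockout groups. Adamts20, a relative of the versican-cutting Adamts9, was at 4.76 ± 2.04, 8.60 ± 1.74 and 10.5 ± 2.74 CPM per kilobase. Mmp16, another membrane-type member, was at 7.19 ± 1.73, 6.22 ± 1.52 and 6.16 ± 1.36. The group means of Adamts14 and Adamts1 lay within 1 SD of each other in the KO metastases. The inhibitors were lower per kilobase, Timp2 at 3.57 ± 1.09 and Timp3 at 2.42 ± 0.907 CPM in the controls. The gelatinase Mmp2 was at 6.77 ± 1.28 CPM per kilobase in the controls, while Mmp9 and the collagenases stood near the bottom of the order.

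**Figure D1:**
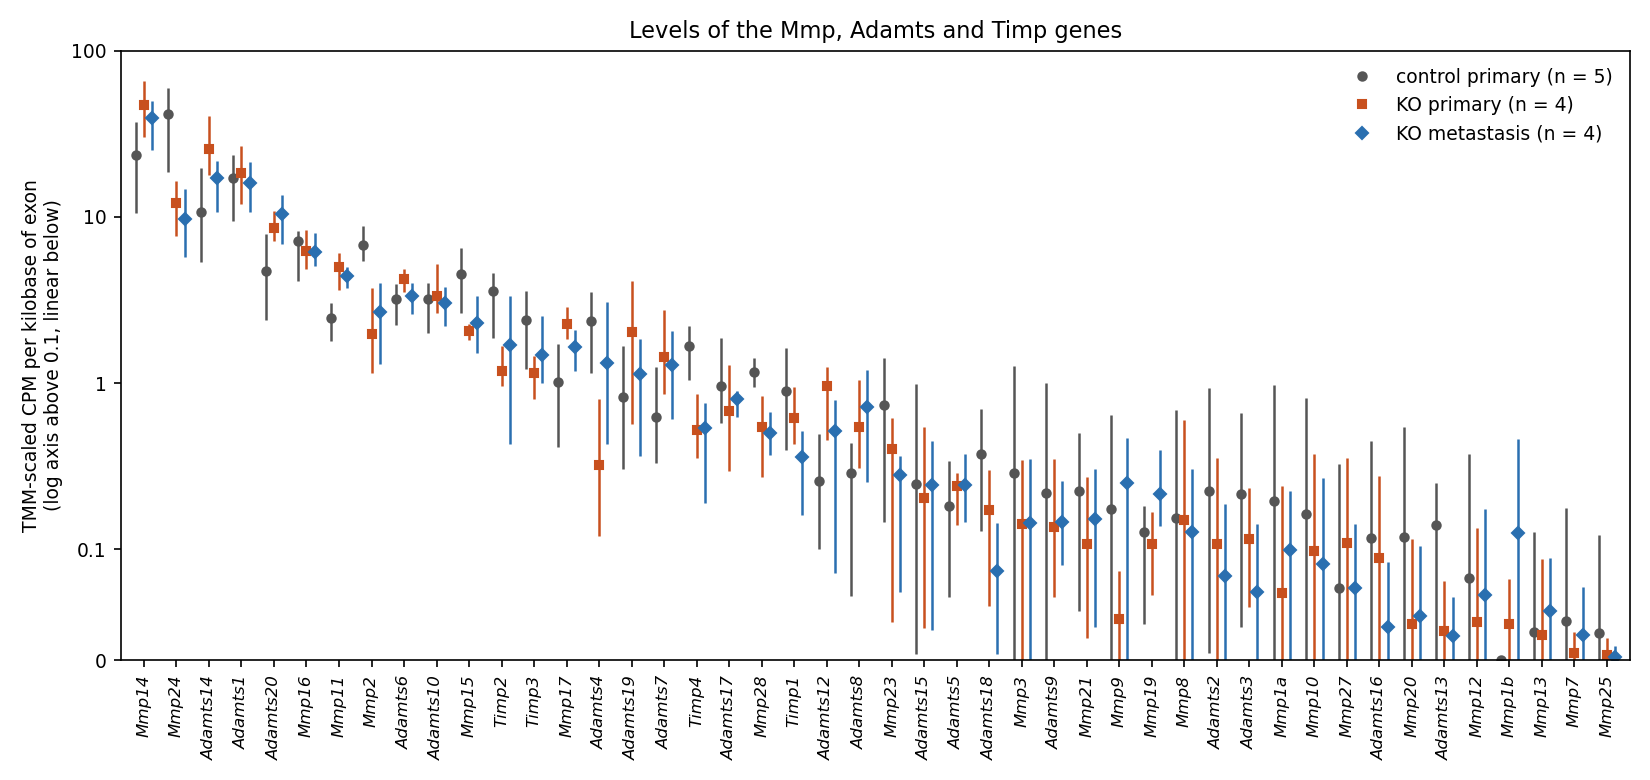
Mean (mark) and range over libraries (line) of the level per kilobase of exon (TMM-scaled CPM per kilobase, log axis above 0.1 and linear below) of the Mmp, Adamts and Timp genes in the control primaries, KO primaries and KO metastases. Mmp24 is highest in the controls at 41.7 and Mmp14 in both knockout groups at 47.1 and 39.6.

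In KO primaries against control primaries, 1 of the 39 genes that passed the low-count filter rose (Mmp11) and 5 fell (Adamts4, Mmp15, Mmp2, Mmp24 and Timp4). Over all 22265 genes tested, 2.93% were called at an edgeR adjusted p under 0.05, 1.15% higher and 1.78% lower. The 7 genes that did not pass the filter (Mmp7, Mmp10, Mmp13, Mmp1b, Mmp20, Mmp25 and Mmp27) were not tested. The median log2 change of the 39 was -0.53, against -0.05 over all genes, and 13 changes were positive, beside 45.6% of all genes, and 26 negative. The negative ones included all 10 tested genes with over 50% of their counts in the 4 libraries of high receptor counts (-1.66 to -0.02). Control primary 3, with the highest receptor level, was the highest control for each of these 10. Its part in the median was not tested. At an unadjusted p under 0.05, 8 of the 39 were higher and 8 lower, beside 6.69% and 6.88% of all genes (13.6% in either direction). The libraries of both groups did not overlap for 9 of the 39, higher in Mmp11 and Mmp17 and lower in Adamts4, Mmp15, Mmp2, Mmp24, Mmp28, Timp2 and Timp4, beside 7.42% of all genes (3.57% higher, 3.85% lower). In these bulk libraries fewer cells of a type and less RNA per cell cannot be told apart. Without the 4 libraries of high receptor counts, 10 members were called, which added Adamts12 and Mmp14 as higher and Timp2 and Timp3 as lower, while with Xist status as a covariate only Mmp14 was called.

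**Figure D2:**
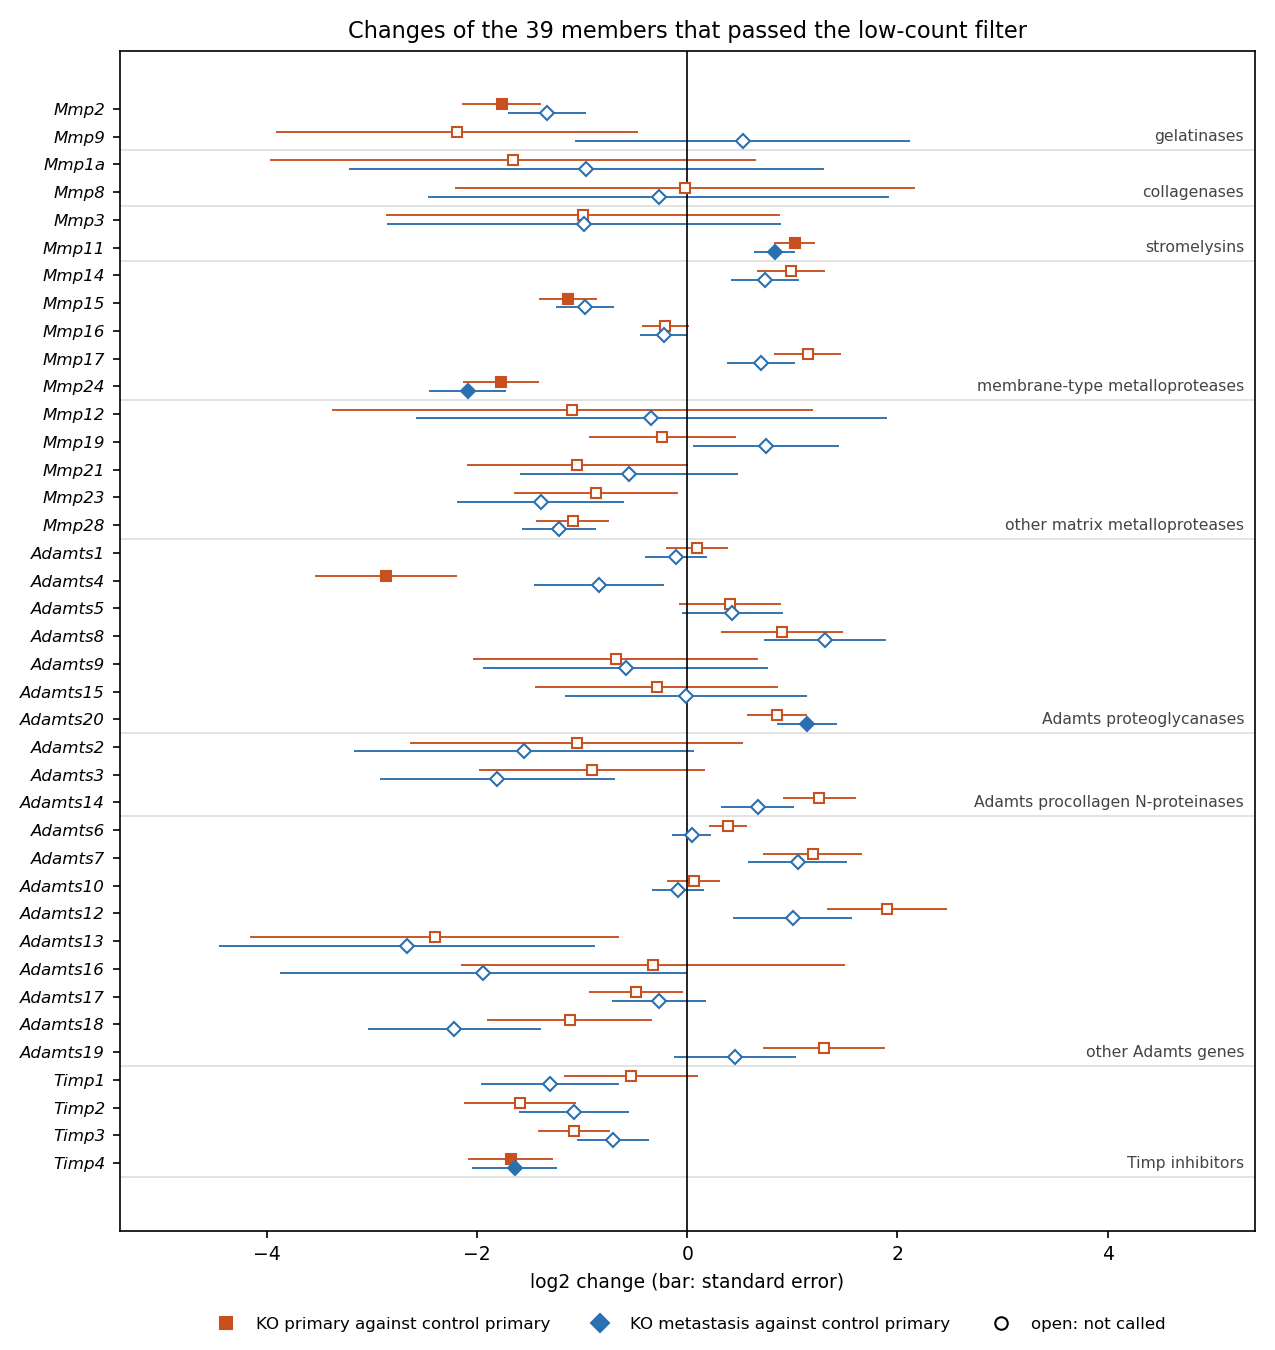
Fitted log2 change with its standard error for the 39 genes that passed the low-count filter, KO primary (squares) and KO metastasis (diamonds) each against the control primaries, ordered by class, with filled marks where the edgeR adjusted p was under 0.05. All 4 Timp genes lie left of 0 in both comparisons, and Mmp14, Mmp17 and Mmp11 lie right of 0.

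Among the 6 membrane-type metalloproteases, 2 of the 5 tested fell in the KO primaries, beside 1.78% of all genes, and none rose, beside 1.15%. Mmp25 had 23 counts in all libraries together and was not tested. Mmp24 (chr2:155775342-155818366, plus strand), a neural membrane-type protease that cuts N-cadherin, was at 87.0, 280.1, 166, 214 and 229 CPM in control primaries 3 to 7, in that order. It was at 72.9, 42.7, 35.9 and 76.7 CPM in KO primaries 3, 4, 6 and 7 and at 26.8, 52.5, 35.2 and 68.9 CPM in KO metastases 3, 4, 6 and 7. Every control library was above every knockout library, with control primary 3 the nearest to them. The log2 change was -1.77 (SE 0.36), 3.42-fold lower, in the KO primaries (edgeR adjusted p = 0.0175) and -2.09 (SE 0.37), 4.26-fold lower, in the KO metastases (edgeR adjusted p = 0.00687). Without KO primary 4 or without KO primary 6 the first of these calls was lost (highest edgeR adjusted p = 0.0888). It was also lost with the Xist covariate (edgeR adjusted p = 0.0899) and with replicate number as a block (0.0673). The call in the metastases held in 9 of 9 fits that left out 1 library, at edgeR adjusted p from 0.00123 to 0.0327, and in the 11 other settings, at up to 0.0438 with the Xist covariate. Of the exon bases of Mmp24, 637 overlap a gene on the opposite strand, BC029722, and their reads cannot be told apart without the strand.

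Mmp14 (chr14:54431612-54445364, plus strand), the collagen-cutting surface protease that activates pro-Mmp2, was at 63.0, 112, 158, 152 and 223 CPM in the controls. It was at 393, 325, 225 and 179.7 CPM in the KO primaries and 278, 299, 215 and 151 CPM in the KO metastases. Control primary 7 lay within the range of both knockout groups, control primaries 5 and 6 within that of the metastases, and KO primary 7 and KO metastases 6 and 7 within that of the controls. The log2 change was 0.99 (SE 0.32) in the KO primaries and was not called (edgeR adjusted p = 0.143), nor was the 0.74 (SE 0.32) in the KO metastases (edgeR adjusted p = 0.315). It was called in the KO primaries without the 4 libraries of high receptor counts, at 0.98 (edgeR adjusted p = 0.0289), and with the Xist covariate, at 1.68 (edgeR adjusted p = 0.0467). DESeq2 (adjusted p = 0.0400), voom (adjusted p = 0.0136) and edgeR with the receptor level as a covariate (edgeR adjusted p = 0.00583) also called it there. In the KO metastases the receptor covariate called it, at 0.90 (edgeR adjusted p = 0.0160). The fits without 1 library, the other scalings and filters, the replicate block and only the compared groups did not call it in either comparison.

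Mmp15 (chr8:95352268-95375080, plus strand), a broadly expressed membrane-type relative, was at 14.2, 30.5, 35.2, 22.5 and 19.3 CPM in the controls and at 12.2, 10.6, 11.6 and 9.75 CPM in the KO primaries. These groups did not overlap, control primary 3 being the lowest control, and the log2 change was -1.14 (SE 0.28, edgeR adjusted p = 0.0418). The metastases were at 18.0, 10.6, 12.8 and 8.20 CPM, with KO metastasis 3 inside the control range and no call (log2 change -0.97, edgeR adjusted p = 0.0803). Leaving out any library of the first comparison other than control primary 3 lost the Mmp15 call, at edgeR adjusted p of up to 0.157. The Xist covariate (edgeR adjusted p = 0.212) and replicate number as a block (0.103) lost it too. Mmp16, which like Mmp14 can activate pro-Mmp2, was at 35.8 to 71.2 CPM in the controls, 42.3 to 71.9 CPM in the KO primaries and 44.0 to 69.7 CPM in the KO metastases, so the groups overlapped over most of their range. Mmp17, a lipid-anchored member named here after its values were seen, was at 2.72 to 11.3 CPM in the controls and 12.3 to 19.1 CPM in the KO primaries, with no overlap and a log2 change of 1.15 that was not called (edgeR adjusted p = 0.0803). DESeq2 (adjusted p = 0.0229) and voom (adjusted p = 0.00663) called Mmp17 higher in the KO primaries.

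Both leading membrane-type genes were then set against each other within each library, on the scale of CPM per kilobase. Mmp24 took 35.4% to 57.3% of the summed Mmp level in the 5 controls and Mmp14 took 18.1% to 34.4%. In the KO primaries Mmp24 took 11.4% to 24.7% and Mmp14 45.4% to 68.1%, and in the KO metastases 7.89% to 25.8% and 44.5% to 64.5%. The ratio of Mmp14 to Mmp24 was 0.315 to 0.763 in the controls, 1.84 to 5.97 in the KO primaries and 1.73 to 8.17 in the KO metastases. Mmp24 was thus the top Mmp gene in 5 of 5 controls and Mmp14 in 8 of 8 knockout libraries, a comparison chosen after the values were seen and given without a test. The summed Mmp level itself overlapped between the groups, at 91.0 ± 22.5 CPM per kilobase (SD, n = 5) in the controls, 78.7 ± 19.7 (n = 4) in the KO primaries and 68.8 ± 10.05 (n = 4) in the KO metastases.

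**Figure D3:**
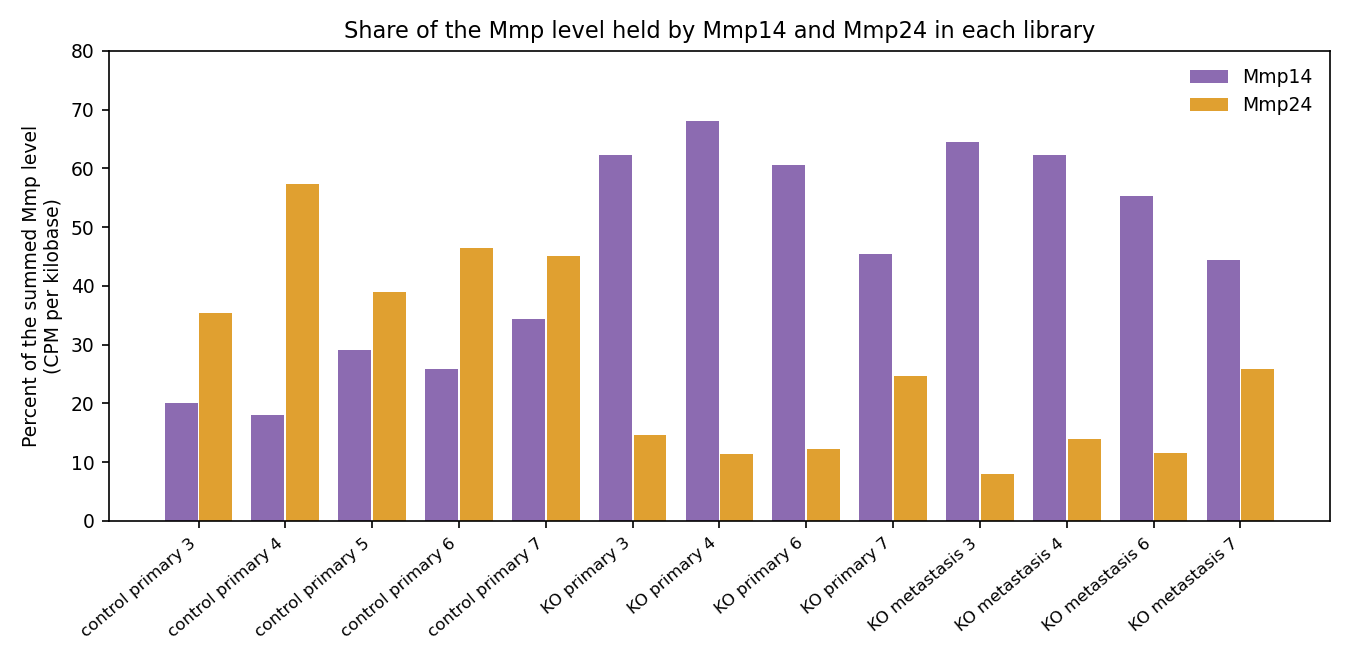
Percent of the summed Mmp level (CPM per kilobase) held by Mmp14 and by Mmp24 in each of the 13 libraries, as bars from 0. The Mmp24 bar is the taller in the 5 controls and the Mmp14 bar in the 8 knockout libraries, with KO primary 7 and KO metastasis 7 the nearest to the controls.

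Of the gelatinases, Mmp2 fell in the KO primaries. Mmp2 (chr8:92827291-92853420, plus strand), which cuts gelatin and basement membrane collagen, was at 18.4, 22.4, 23.6, 29.6 and 20.1 CPM in the controls. The KO primaries were at 12.5, 4.35, 3.86 and 6.07 CPM and the KO metastases at 13.6, 4.4, 10.2 and 7.97 CPM. No knockout library reached the lowest control, and replicate 3 was the highest of each knockout group. The log2 change was -1.77 (SE 0.38), 3.40-fold lower, in the KO primaries (edgeR adjusted p = 0.0210) and -1.34 (SE 0.37) in the KO metastases, which was not called (edgeR adjusted p = 0.0736). The Mmp2 call was lost in 5 of 9 fits without 1 library, those without control primary 4 or 6 or KO primary 4, 6 or 7, at edgeR adjusted p of up to 0.101. The Xist covariate lost it too (edgeR adjusted p = 0.121). In the KO metastases DESeq2 (adjusted p = 0.0122) and voom (adjusted p = 0.00248) called Mmp2 lower. Summed markers of fibroblasts and meningeal cells, which also express Mmp2, were at 178 to 438 CPM in the controls, 191 to 324 in the KO primaries and 106 to 189 in the KO metastases. Pdgfra alone was at 152 to 388, 147 to 181 and 47.1 to 121 CPM in the same order. Of the 10 markers tested in that list 0 were called in the KO primaries, where 4 changes were positive and 6 negative. In the KO metastases against the controls 1 was called lower, beside 2.02% of all genes, and 2 changes were positive and 8 negative. The called marker, Pdgfra, is also on the list of oligodendrocyte precursors. The part of these markers in the Mmp2 result was not tested.

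Mmp9, the second gelatinase, was low and uneven, at 0 to 2.29 CPM in the controls, 0 to 0.286 CPM in the KO primaries and 0 to 1.65 CPM in the KO metastases, with no call. The 3 libraries above 1 CPM were control primary 6 at 2.29, KO metastasis 6 at 1.65 and KO metastasis 7 at 1.55 CPM. These were also the libraries with the highest summed markers of microglia and macrophages, at 136, 303 and 253 CPM against 6.61 to 58.8 CPM in the other 10. The neutrophil list was at 2.45, 6.99 and 3.48 CPM in them and at 0.703 to 12.5 CPM over all libraries, and the part of either list in the Mmp9 level was not tested.

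Stromelysins cut many matrix proteins, and of the 3 members Mmp11, which furin activates inside the cell, was the one counted in all 13 libraries. Mmp11 (chr10:75923222-75936496, minus strand) was at 8.44, 6.96, 7.07, 6.95 and 5.01 CPM in the controls, 16.9, 13.5, 15.5 and 10.1 CPM in the KO primaries and 13.8, 12.9, 11.9 and 10.4 CPM in the KO metastases. All 8 knockout libraries were above all 5 controls, and in both knockout groups replicate 7 was the lowest. Mmp11 rose 2.03-fold in the KO primaries (log2 change 1.02, SE 0.20, edgeR adjusted p = 0.0121). It rose 1.78-fold in the KO metastases (log2 change 0.83, SE 0.20, edgeR adjusted p = 0.0361). The first call was lost without KO primary 3 or KO primary 6 (edgeR adjusted p up to 0.0677), and the second in 8 of 9 fits without 1 library, all but the one without control primary 3 (up to 0.121). With the Xist covariate neither was called, and the second was also lost with upper-quartile scaling (edgeR adjusted p = 0.0682), without a filter on low counts (0.0842) and with only the compared groups (0.0786). Replicate number as a block lost both calls (edgeR adjusted p = 0.0527 and 0.0920). In Mmp11, 155 exon bases overlap Chchd10 on the opposite strand.

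Mmp28, epilysin, was at 4.03, 5.3, 4.07, 3.67 and 5.49 CPM in the controls, 2.66, 1.52, 1.06 and 3.22 CPM in the KO primaries and 2.59, 1.83, 1.44 and 1.90 CPM in the KO metastases. The knockout libraries all lay below the controls, without a call in the KO primaries (log2 change -1.09, edgeR adjusted p = 0.131) or in the KO metastases (log2 change -1.22, edgeR adjusted p = 0.0861). DESeq2 called Mmp28 lower in both (adjusted p = 0.0284 and 0.0145), as did voom (adjusted p = 0.00488 and 0.0149). Mmp23, whose product is anchored by its amino end, was at 0.342 to 3.31 CPM in the controls and at 0.0816 to 1.44 CPM in the knockout libraries, which overlapped.

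**Figure D4:**
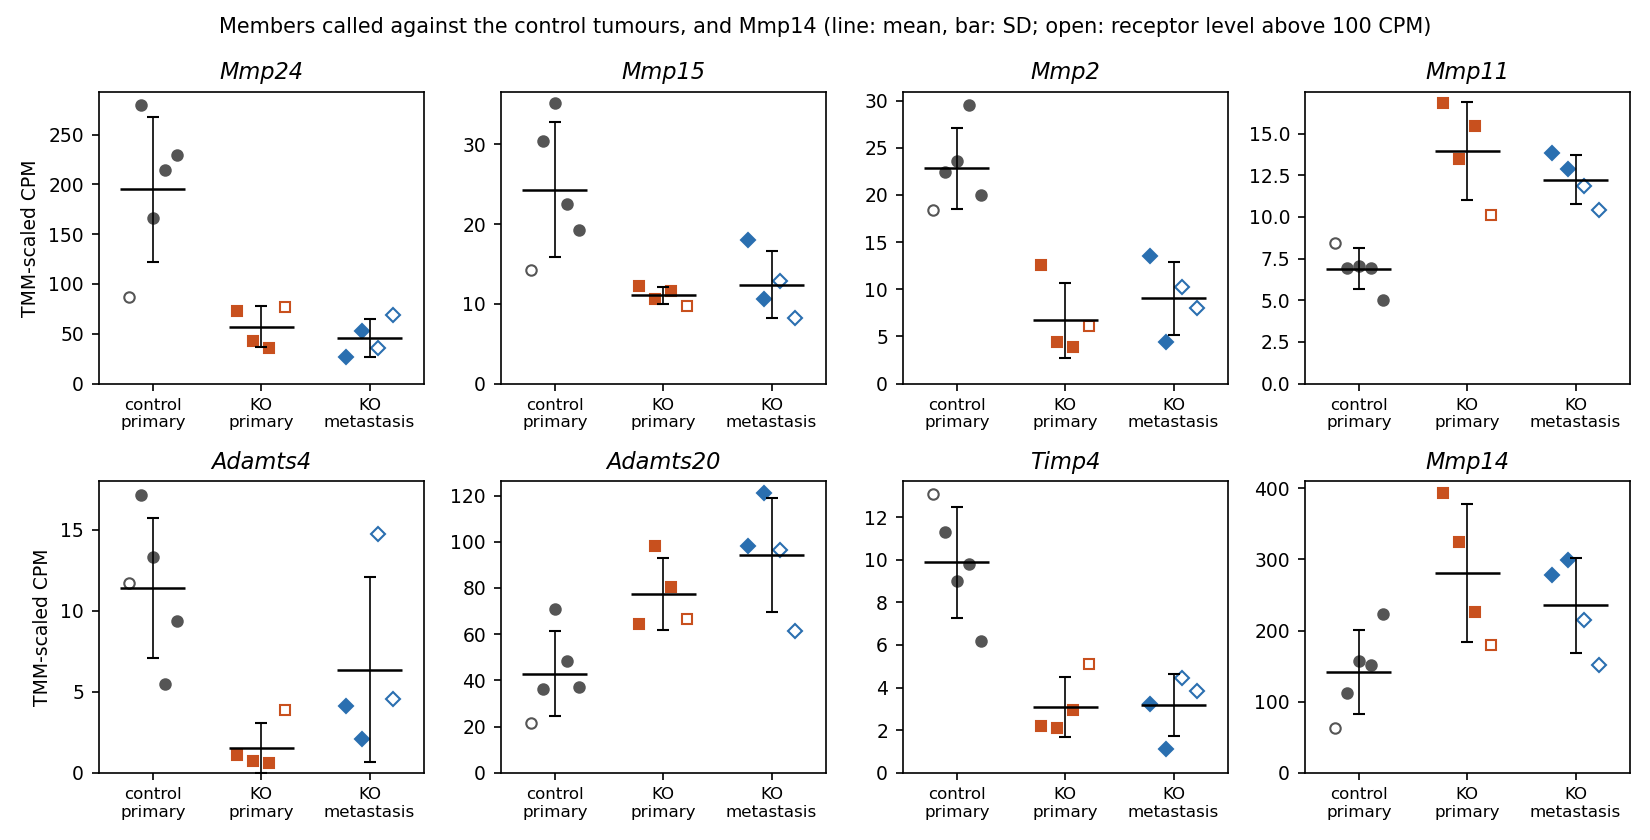
TMM-scaled CPM of each of the 13 libraries (points, open where the receptor level was above 100 CPM) with the group mean (line) and SD (bar), for the 7 members called in either comparison with the controls and for Mmp14. Knockout points lie below all controls for Mmp24, Mmp2 and Timp4 and above all controls for Mmp11, while for Adamts4 the 4 KO primaries lie below and KO metastasis 6 lies among the controls.

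The proteoglycan-cutting Adamts genes moved in different directions, with 1 of 7 lower in the KO primaries (Adamts4) and 1 of 7 higher in the KO metastases (Adamts20), against the controls in each case. Of all genes, 1.78% were called lower in the KO primaries and 1.06% higher in the KO metastases. Adamts4 (chr1:171250421-171260637, plus strand), an aggrecanase that also cuts brevican, was at 11.7, 17.1, 13.3, 5.50 and 9.34 CPM in the controls. The KO primaries were at 1.09, 0.707, 0.582 and 3.85 CPM and the KO metastases at 4.09, 2.07, 14.7 and 4.55 CPM. No KO primary reached the lowest control, whereas KO metastasis 6 was above 4 of the 5 controls. Adamts4 fell 7.31-fold in the KO primaries (log2 change -2.87, SE 0.67, edgeR adjusted p = 0.0355), and without the 4 libraries of high receptor counts the log2 change was -3.81 (edgeR adjusted p = 0.00128). The call was lost in 6 of 9 fits without 1 library, those without control primary 4, 5 or 7 or KO primary 3, 4 or 6 (edgeR adjusted p up to 0.142). It was also lost with the Xist covariate (edgeR adjusted p = 0.0636).

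Adamts4 is expressed by oligodendrocytes, and their marker list differed between the same groups. Its summed level was 151 to 425 CPM in the controls, 76.1 to 110.0 CPM in the KO primaries and 182, 324, 1983 and 853 CPM in KO metastases 3, 4, 6 and 7. The library with the highest Adamts4 level of the metastases, KO metastasis 6, thus also had the highest oligodendrocyte sum. Of the 10 oligodendrocyte markers 1, Opalin, fell in the KO primaries, beside 1.78% of all genes, and was at 0 in all 4 libraries. The other 9 were also lower without a call. The part of this list in the Adamts4 result was not tested.

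Adamts20 (chr15:94270163-94465418, minus strand) was at 21.5, 36.1, 70.9, 48.4 and 37.3 CPM in the controls. It was at 64.4, 98.2, 80.5 and 66.4 CPM in the KO primaries and at 98.0, 121, 96.5 and 61.5 CPM in the KO metastases. Control primary 5 overlapped both knockout groups and the other 4 controls lay below them. The gene rose 2.20-fold in the KO metastases (log2 change 1.14, SE 0.29, edgeR adjusted p = 0.0468) and was not called in the KO primaries (log2 change 0.85, SE 0.29, edgeR adjusted p = 0.153). Its call was lost in 6 of 9 fits without 1 library, those without control primary 4, 6 or 7 or KO metastasis 3, 4 or 6 (edgeR adjusted p up to 0.154). The call was also lost with only the compared groups (edgeR adjusted p = 0.0713) and with replicate number as a block (0.0542).

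Adamts1, the most abundant of the 7 proteoglycanases, was at 50.2 to 124 CPM in the controls, 63.0 to 141 CPM in the KO primaries and 57.0 to 114 CPM in the KO metastases, so the groups overlapped throughout. Of the 3 procollagen N-proteinases Adamts14 was the one of high level. With group as the single term edgeR called 0 of the 3. At an unadjusted p under 0.05, 1 was higher in the KO primaries, beside 6.69% of all genes. Adamts14 was at 43.0, 47.8, 103, 57.4 and 27.7 CPM in the controls, 211, 131, 97.8 and 93.2 CPM in the KO primaries and 102, 113, 84.1 and 55.7 CPM in the KO metastases. Control primary 5 overlapped the KO primaries, whose log2 change of 1.26 was not called (edgeR adjusted p = 0.0758). Of the fits without 1 library, only that without this overlapping library called the change (log2 change 1.59, edgeR adjusted p = 0.0187). With all 13 libraries it was called by DESeq2 (adjusted p = 0.0113) and by voom (adjusted p = 0.00576). EdgeR called it with the receptor level as a covariate (edgeR adjusted p = 0.0313) and with replicate number as a block (0.0270). Per kilobase, Adamts1 led the Adamts genes in 5 of 5 controls, with a ratio of Adamts14 to Adamts1 of 0.413 to 0.874. Adamts14 led in 4 of 4 KO primaries, at 1.09 to 1.52, and the KO metastases were split, at 0.840 to 1.83. The summed Adamts level was 46.1 ± 13.8 CPM per kilobase (SD, n = 5) in the controls, 67.2 ± 17.9 (n = 4) in the KO primaries and 56.5 ± 12.8 (n = 4) in the KO metastases, with overlap.

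Among the 9 other Adamts genes edgeR with group as the single term called 0 in each comparison. At an unadjusted p under 0.05, 3 were higher in the KO primaries, beside 6.69% of all genes. In the KO metastases against the controls 1 was higher and 1 lower, beside 6.67% and 7.57%. Between the knockout groups there were 0, beside 3.23%. With the receptor level as a covariate Adamts18 was called lower in the KO metastases against the controls (log2 change -2.71, edgeR adjusted p = 0.0431). Adamts6 was at 17.5 to 31.0 CPM in the controls, 27.5 to 37.8 CPM in the KO primaries and 20.4 to 31.2 CPM in the KO metastases. Adamts10, which binds fibrillin, was at 16.6 to 33.2, 21.9 to 43.0 and 18.4 to 31.4 CPM in the same order, and both genes overlapped between the groups. Adamts12, named after its values were seen, was at 1.1 to 5.4 CPM in the controls and 4.96 to 13.7 CPM in the KO primaries (log2 change 1.90, SE 0.57, edgeR adjusted p = 0.106). It was called in the KO primaries by DESeq2 (adjusted p = 0.0294) and by voom (adjusted p = 0.00735).

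The 4 inhibitors had the same sign in both comparisons with the controls, which share the control libraries, and 1 of the 4, Timp4, passed the test in each. Of all genes, 1.78% were called lower in the KO primaries and 2.02% in the KO metastases. Timp4 (chr6:115241892-115252205, minus strand), an inhibitor with high levels in brain and heart, was at 13.1, 11.3, 9.01, 9.79 and 6.16 CPM in the controls. It was at 2.19, 2.09, 2.94 and 5.09 CPM in the KO primaries and 3.23, 1.11, 4.46 and 3.86 CPM in the KO metastases. All knockout libraries were below all controls, KO primary 7 coming nearest to control primary 7. Timp4 fell 3.20-fold in the KO primaries (log2 change -1.68, SE 0.40, edgeR adjusted p = 0.0389) and 3.12-fold in the KO metastases (log2 change -1.64, SE 0.40, edgeR adjusted p = 0.0411). Calls were lost in 5 of 9 fits without 1 library for the KO primaries (control primary 4 or 6, KO primary 3, 4 or 6, edgeR adjusted p up to 0.16) and in 8 of 9 for the KO metastases, all but the one without control primary 7 (up to 0.104). The Timp4 call in the metastases was also lost with upper-quartile scaling (edgeR adjusted p = 0.0683), with only the compared groups (0.0528) and with the Xist covariate (0.0709). Replicate number as a block lost the calls in the KO primaries and the KO metastases (edgeR adjusted p = 0.0910 and 0.142). In the KO primaries the Xist covariate lost it too (edgeR adjusted p = 0.0605). Astrocytes and Bergmann glia can express Timp4, and their summed markers were at 689 to 903 CPM in the controls, 780 to 1279 CPM in the KO primaries and 779 to 1430 CPM in the KO metastases. In this list of 10, 1 marker was higher (Sox9) and 1 lower (Aqp4) in the KO primaries and 1 higher (Sox9) in the KO metastases. The matching shares of all genes were 1.15%, 1.78% and 1.06%. Sox9 alone was at 230 to 336 CPM in the controls, 440 to 727 in the KO primaries and 395 to 690 in the KO metastases. In the KO primaries 3 of the 10 changes were positive and 7 negative (median log2 change -0.35), and in the KO metastases 5 and 5. The part of this list in the Timp4 result was not tested.

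Timp2 (chr11:118301069-118355740, minus strand), which inhibits Mmp2 and also takes part in its activation, was at 12.9, 17.9, 17.2, 14.2 and 7.27 CPM in the controls. The KO primaries were at 3.72, 6.50, 4.21 and 4.01 CPM, all below the controls, without a call (log2 change -1.59, SE 0.53, edgeR adjusted p = 0.150). The KO metastases were split, at 2.15 and 1.67 CPM in replicates 3 and 4 and 13.1 and 9.44 CPM in replicates 6 and 7 (log2 change -1.08, edgeR adjusted p = 0.378). Replicates 6 and 7 were the metastases with high receptor counts, and they had 303 and 253 CPM of microglial markers against 58.8 and 19.4 CPM in replicates 3 and 4. Without the 4 libraries of high receptor counts Timp2 was called lower in the KO primaries (log2 change -1.54, edgeR adjusted p = 0.0262) and in the 2 metastases left (log2 change -2.88, edgeR adjusted p = 0.00558). The part of the other cells in the Timp2 level was not tested.

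Timp3 (chr10:86300372-86349506, plus strand) was at 9.93, 29.4, 23.0, 20.5 and 15.6 CPM in the controls, 10.8, 8.11, 6.51 and 11.9 CPM in the KO primaries and 8.40, 20.6, 8.11 and 11.1 CPM in the KO metastases. Control primary 3 and KO metastasis 4 made the groups overlap, and Timp3 was not called in the KO primaries (log2 change -1.08, SE 0.35, edgeR adjusted p = 0.133) or the KO metastases (log2 change -0.71, edgeR adjusted p = 0.381). Of the fits without 1 library, only that without control primary 3, the overlapping control, called the change in the KO primaries (log2 change -1.24, edgeR adjusted p = 0.0378). Timp3 was also called there without the 4 libraries of high receptor counts (edgeR adjusted p = 0.0360). DESeq2 (adjusted p = 0.0323) and voom (adjusted p = 0.00247) called it there too. In the KO metastases voom alone called Timp3 lower (adjusted p = 0.02). Of its exon bases 1733 overlap Syn3 on the opposite strand, so this level is uncertain. Timp1, an X-linked inhibitor induced in inflamed tissue, was at 0.350 to 1.45 CPM in the controls, 0.381 to 0.840 in the KO primaries and 0.144 to 0.457 in the KO metastases, with overlap and no call. Summed per kilobase, the 4 Timp genes were at 8.55 ± 2.47 CPM (SD, n = 5, range 5.21 to 11.8) in the controls and 3.47 ± 0.608 (n = 4, range 2.85 to 4.30) in the KO primaries, without overlap. The KO metastases were at 4.06 ± 1.34 (n = 4, range 2.54 to 5.62) and overlapped control primary 7.

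In the metastases against the control primaries, 4 of the 39 genes passed the test, Adamts20 and Mmp11 higher and Mmp24 and Timp4 lower, beside 3.08% of all genes (1.06% higher, 2.02% lower). The median log2 change was -0.34, against -0.04 over all genes, with 13 positive, beside 46.6% of all genes, and 26 negative. The 10 tested genes with over 50% of their counts in the 4 libraries of high receptor counts were again all negative (-1.94 to -0.013). At an unadjusted p under 0.05, 6 of the 39 were higher and 6 lower, beside 6.67% and 7.57% of all genes (14.2% in either direction). Groups did not overlap for 5 of the 39, Mmp11 higher and Mmp2, Mmp24, Mmp28 and Timp4 lower, beside 6.82% of all genes (2.81% higher, 4.01% lower). Without the 4 libraries of high receptor counts 6 were called, Adamts18 and Timp2 in addition, as lower. With the receptor level as a covariate 6 were called too, Mmp14 higher and Adamts18 lower in addition (edgeR adjusted p = 0.0160 and 0.0431). Adamts18 was at 1.32 to 7.07 CPM in the controls and 0.053 to 1.47 CPM in the metastases. This comparison differs in site, genotype and partly in age and sex at once, which cannot be told apart.

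Between KO metastases and KO primaries, which compares the spinal cord with the cerebellar site in the knockout, 0 of the 39 genes were called by edgeR, beside 0.00449% of all genes, a single gene (Mbp, the myelin basic protein, higher). DESeq2 and limma voom called 0 of the 39 as well. At an unadjusted p under 0.05 there was 1 of the 39, Adamts4 (log2 change 2.03, SE 0.67, unadjusted p = 0.00938, edgeR adjusted p = 1.00), beside 3.23% of all genes (1.94% higher, 1.29% lower). For 0 of the 39 were the groups without overlap, beside 1.72% (0.683% higher, 1.04% lower). The median log2 change was -0.13, against -0.0038 over all genes, 18 changes were positive, beside 49.6% of all genes, and changes ran from -1.61 to 2.72. For Adamts4, the 10 oligodendrocyte markers were all higher in the metastases in the same comparison. All 15 microglial markers were higher too, 13 of them at an unadjusted p under 0.05 and 0 of them called.

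A tight cluster on chromosome 9 held 10 of the Mmp genes, in the order Mmp13, Mmp12, Mmp1b, Mmp3, Mmp1a, Mmp10, Mmp8, Mmp27, Mmp20 and Mmp7 (chr9:7272514-7699585, 427 kb). They include secreted collagenases, stromelysins and the macrophage elastase Mmp12. They had 845 counts in all 13 libraries together, of which 795 (94.1%) were in the 4 libraries of high receptor counts. The other 9 libraries shared 50 counts, and 4 of them, control primary 6, KO primary 3 and KO metastases 3 and 4, had 0. Summed over the 10 genes, the level was 3.05 to 13.1 CPM in the 4 libraries and at most 0.529 CPM in the others, and its order in the 4 was that of the receptor level. A count of 0 in a library of these totals allows up to 3 counts for a gene, so low expression was not detectable at this depth. Mmp1a and Mmp1b are near copies, and their counts are uncertain.

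**Figure D5:**
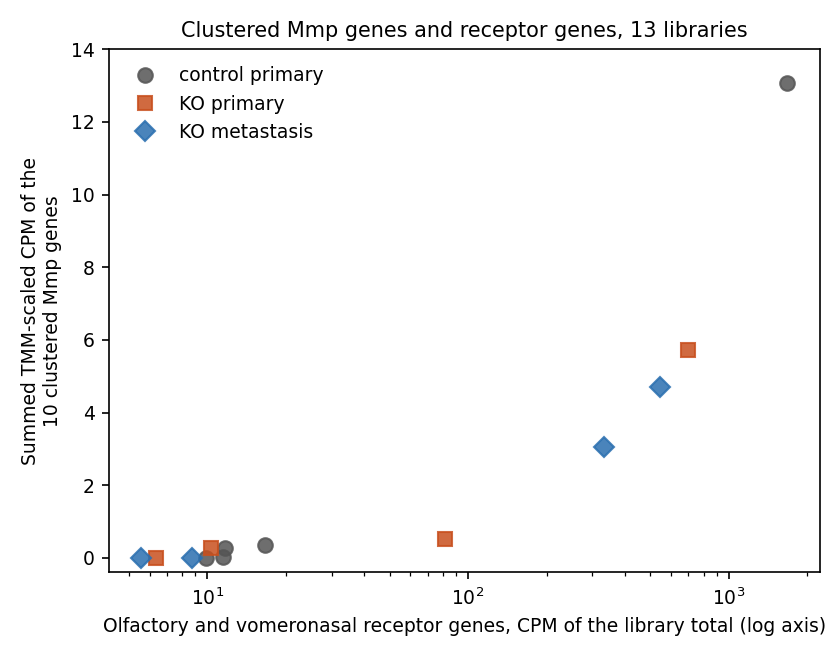
Summed level of the 10 Mmp genes on chromosome 9 (TMM-scaled CPM) against the summed level of 1772 olfactory and vomeronasal receptor genes (CPM of the library total, log axis), 1 point for each library. The 4 libraries above 100 receptor CPM are at 3.05 to 13.1 CPM and the other 9 at 0.529 CPM or less.

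The AP-1 motif TGANTCA, read on both strands, was in 7 of the 32 windows, those of Mmp10, Mmp13, Mmp1a, Mmp1b, Mmp20, Mmp3 and Mmp7, all of them in the cluster, and in 6.85% of all 27025 windows. The same 7 windows held TATAAA, as did those of Adamts1 and Mmp21 and 13% of all. Windows of Mmp13 (chr9:7272264-7272513, plus strand) and Mmp3 (chr9:7445572-7445821, plus strand) show both motifs in capitals, AP-1 first, and are printed because AP-1 sites are the known feature of inducible Mmp promoters.
Mmp13: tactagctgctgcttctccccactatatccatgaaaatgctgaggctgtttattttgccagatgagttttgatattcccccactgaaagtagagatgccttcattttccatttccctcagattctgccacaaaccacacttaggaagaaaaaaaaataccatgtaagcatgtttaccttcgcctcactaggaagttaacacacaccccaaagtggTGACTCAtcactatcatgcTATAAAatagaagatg
Mmp3: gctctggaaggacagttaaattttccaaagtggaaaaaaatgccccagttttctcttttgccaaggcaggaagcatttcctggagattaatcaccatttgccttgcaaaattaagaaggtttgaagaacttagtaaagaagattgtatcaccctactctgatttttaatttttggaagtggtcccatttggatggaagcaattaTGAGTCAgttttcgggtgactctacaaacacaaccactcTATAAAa
Of the 46 genes, 17 had over 50% of their counts in the 4 libraries, which held 27.5% of all counts, and the 10 clustered genes were among the 17. The share was over 90% in 9 genes, of which Mmp25 was the one outside the cluster. Of the 17, 10 had passed the filter: Adamts15, Adamts16, Adamts2, Adamts3, Adamts9, Mmp12, Mmp1a, Mmp21, Mmp3 and Mmp8. With all 13 libraries edgeR called 0 of these 10 in each comparison, whereas voom called Adamts9, Mmp12 and Mmp1a higher against the controls. What their reads come from was not tested.

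Substrates, activators and other inhibitors were taken from 5 further lists, 64 of whose 67 genes were tested. In the KO primaries 0 of the 64 rose and 2 fell, Papln and Ncan, a share of 3.12% beside 2.93% of all genes, with a median log2 change of -0.36. In the KO metastases against the controls 1 rose, Adamtsl1, and 4 fell, Papln, Serpine2, Vcan and Ncan, 7.81% beside 3.08%, with a median of -0.24. Between KO metastases and KO primaries 0 of the 64 were called by edgeR and 1 by DESeq2. At an unadjusted p under 0.05 in edgeR there were 7, 6 higher and 1 lower, beside 3.23% of all genes (1.94% higher, 1.29% lower).

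Among 14 proteoglycans and other substrates, Ncan, the brain proteoglycan neurocan, was at 41.0, 34.5, 118, 81.1 and 63.4 CPM in the controls, 7.74, 9.14, 6.24 and 8.83 CPM in the KO primaries and 8.65, 9.47, 11.2 and 6.10 CPM in the KO metastases. The lowest control was far above the highest knockout library. Ncan fell 8.47-fold in the KO primaries (log2 change -3.08, SE 0.35, edgeR adjusted p = 4.25e-04) and 7.63-fold in the KO metastases (log2 change -2.93, SE 0.34, edgeR adjusted p = 5.66e-04). Vcan, versican, a substrate of Adamts1, Adamts4 and Adamts20, was at 39.6 ± 5.49 CPM (SD, n = 5) in the controls, 25.6 ± 5.42 (n = 4) in the KO primaries and 23.4 ± 4.26 (n = 4) in the KO metastases. It fell in the KO metastases (log2 change -0.76, SE 0.18, edgeR adjusted p = 0.0311) and was not called in the KO primaries (edgeR adjusted p = 0.0764).

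Of 14 Adamts-like genes and other inhibitors tested, Papln, the matrix protein papilin, was at 21.1 ± 7.32 CPM (SD, n = 5) in the controls, 7.63 ± 2.35 (n = 4) in the KO primaries and 6.39 ± 2.94 (n = 4) in the KO metastases. Papln fell in both (log2 change -1.47, SE 0.34, edgeR adjusted p = 0.0313, and -1.72, SE 0.34, edgeR adjusted p = 0.0137). Serpine2, a serine protease inhibitor of the nervous system, was at 35.7 ± 13.7, 13.2 ± 4.42 and 9.74 ± 6.85 CPM and fell in the KO metastases (log2 change -1.87, SE 0.45, edgeR adjusted p = 0.0387). Adamtsl1, which has the Adamts ancillary domains without the protease, was at 19.2 ± 7.55, 44.2 ± 28.7 and 58.2 ± 21.1 CPM and rose in the KO metastases (log2 change 1.60, SE 0.40, edgeR adjusted p = 0.0444). The other 3 lists had no call by edgeR with group as the single term. Their median log2 changes in the KO primaries and in the KO metastases against the controls were -0.17 and -0.24 for 12 Adam family proteases, -0.30 and -0.40 for 12 activators such as furin, and -0.53 and 0.09 for 12 other matrix and lysosomal proteases.

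Marker lists of the other cell types that a sort could hold were read in the same libraries, as summed CPM in the controls, KO primaries and KO metastases. Microglia and macrophages were at 13.3 to 136, 6.61 to 29.5 and 19.4 to 303, and neutrophils at 1.06 to 12.5, 0.703 to 4.04 and 0.822 to 6.99. Endothelial cells were at 3.11 to 34.8, 4.44 to 22.9 and 5.15 to 14, and pericytes at 18.0 to 35.9, 22.9 to 38.3 and 16.0 to 19.1. Oligodendrocyte precursors were at 1143 to 1554, 729 to 1161 and 641 to 771, with 1 of 10 markers lower in the KO primaries and 4 lower in the KO metastases. The matching shares of all genes were 1.78% and 2.02%. C1ql1 alone was at 641 to 1085, 417 to 610 and 347 to 463. Changes of the 10 were positive for 2 and negative for 8 in the KO primaries, and for 1 and 9 in the KO metastases. Lymphocytes were at 1.36 to 18.3, 0.313 to 7.56 and 0.530 to 5.23, and ependymal and choroid plexus cells at 114 to 174, 151 to 169 and 168 to 218. Otx2 alone was at 75.3 to 133, 135 to 150 and 155 to 202 of the last list. Of its 8 tested markers, 2 were positive and 6 negative in each comparison with the controls. Clic6 was called lower in both, and in the KO metastases Kl was called lower and Otx2 higher. The part of these lists in the results on Mmp, Adamts and Timp genes was not tested.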

How the data were processed

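Gene expression was measured by RNA-seq in 13 libraries. The deposited table holds raw counts per gene symbol. The submitters' processing notes name STAR 2.4 and HTSeq 0.6.1 beside DESeq2 and the build mm10, with no role for each; strand setting and annotation: not given in the sources used here. Per the labels' protocols, a TruSeq RNA kit was used on 1 to 5 M cells (primaries) or 0.1 to 3 M cells (metastases).

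One edgeR 4.0.16 model (R 4.3.3) took in all 13 libraries (filterByExpr, minimum count 10, minimum total 15, TMM, quasi-likelihood F test, group as the single term). Genes were called at a Benjamini-Hochberg adjusted p under 0.05 over 22265 genes. Coordinates and exon lengths came from GENCODE M21 (GRCm38), matched by symbol for all 46 genes. Some overlaps between genes are not reported here. CPM are TMM-scaled, except receptor levels, and the fit was tested on simulated data. No pair of libraries of a group agreed within sampling noise.

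The members, lists, named genes and alternatives were chosen with earlier results of these data known. Named were the called members, all Timp genes, the 2 members of highest level per kilobase of each class, and up to 3 called genes of each further list. Alternatives were other scalings (RLE, upper quartile) and filters, DESeq2 1.42.0, voom with quality weights (limma 3.58.1), a replicate block, an Xist covariate, each library left out, and fits without 4 libraries; the receptor covariate was chosen after seeing the data.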

Additional observations from a re-analysis of the deposited data

Results flagged for a closer look

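The values of 66 groups of libraries, for the 22 named members in 3 groups each, were examined for 1 library far from the others of its group, which chance gives in about 5% of groups. There were 11 such groups.

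In control primary 3, the library with the highest receptor level, Adamts2 was at 8.75 CPM (others 0.0644 to 0.798), Mmp3 at 2.28 CPM (others 0 to 0.269), Mmp1a at 1.98 CPM (others 0) and Mmp8 at 1.67 CPM (others 0 to 0.19). In KO primary 7, the KO primary with the highest receptor level, Adamts10 was at 43.0 CPM (others 21.9 to 24.1), Adamts4 at 3.85 CPM (others 0.582 to 1.09), Adamts2 at 3.30 CPM (others 0 to 0.555), Mmp8 at 1.46 CPM (others 0) and Mmp1a at 0.488 CPM (others 0).

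Outside the libraries of high receptor counts, Mmp9 was at 2.29 CPM in control primary 6 (others 0 to 0.619), and Mmp23 was at 0.144 CPM in KO metastasis 3 (others 0.777 to 0.849).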

How the results depend on the processing

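The 4 libraries of high receptor counts, sex and single libraries limit the calls, and with 4 or 5 libraries a group the number of calls moved with the test. For KO primary against control primary, 653 genes, 6 members and 2 genes of the further lists were called. Without the 4 libraries these were 1427, 10 and 7, with the Xist covariate 342, 1 and 1, with DESeq2 1510, 13 and 9, and with voom 3267, 16 and 18 (1636 genes higher and 1631 lower, against 257 and 396). With the receptor covariate they were 1115 genes, 9 members and 6 list genes. The members that DESeq2 added were Adamts12, Adamts14, Mmp14 and Mmp17 as higher and Mmp28, Timp2 and Timp3 as lower. Voom added these and Adamts7, Adamts9 and Adamts20 as higher. List genes were 4 with upper-quartile scaling, 7 with a mean CPM of at least 1 and 5 with only the compared groups.

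For KO metastasis against control primary, 685 genes, 4 members and 5 list genes became 1274, 6 and 7 without the 4 libraries, 329, 2 and 1 with the Xist covariate, 1532, 7 and 11 with DESeq2, 3822, 11 and 24 with voom (2318 higher and 1504 lower), and 1117, 6 and 8 with the receptor covariate. Members were 2 with upper-quartile scaling and 2 with only the compared groups, and list genes were 8 with a mean CPM of at least 1. DESeq2 added the members Mmp2, Mmp15 and Mmp28 as lower. Voom added these and Timp3 as lower, and Adamts9, Mmp12 and Mmp1a as higher. For KO metastasis against KO primary, 1 gene became 2 with no filter, 0 with only the compared groups, 5 without the 4 libraries, 0 with the Xist covariate, 33 with DESeq2, 2 with voom and 0 with the receptor covariate; 0 members were called in any setting, and 1 list gene with DESeq2.

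Each library left out in turn gave 277 to 1032 genes, 0 to 7 members and 1 to 8 list genes for KO primary against control primary, 0 to 1, 0 and 0 for KO metastasis against KO primary, and 369 to 1199, 1 to 5 and 2 to 10 for KO metastasis against control primary.

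The replicate block gave 7 members for KO primary against control primary (2 of them among the 6), 2 members and 411 genes for KO metastasis against control primary, and 10 genes and 0 members for KO metastasis against KO primary. The numbers were not shown to pair the libraries: the deviations of the 4 same-numbered KO pairs correlated at -0.005 to 0.675, 3 of them over 0.1, and 3 of 8 libraries correlated best with their own number.

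With voom, 3 members of low level were called higher against the controls although their edgeR log2 changes were negative. In the KO metastases these were Adamts9 (4.26 against -0.59), Mmp12 (4.44 against -0.34) and Mmp1a (3.79 against -0.96), and in the KO primaries Adamts9 (3.29 against -0.68). The cause was not tested. No scaling moved the median log2 change of all genes by over 0.1.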
